A study of Mus musculus with 4 samples.

Results

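The genes of the epithelial polarity complexes were followed in mouse embryonic lungs (E16.5, whole organ). They were 10 genes of the Par, Crumbs and Scribble complexes and of the tight junction scaffold, chosen by symbol from the known makeup of the complexes, with STK11 being the mammalian counterpart of the worm polarity kinase Par-4. All 10 symbols (Pard3, Pard6b, Prkci, Crb3, Mpp5, Inadl, Scrib, Llgl1, Llgl2 and Tjp1) were found among the 22556 genes of the deposited table. The data were 4 RNA sequencing libraries, 2 per genotype, numbered 1 and 2 within Control and within Shh-Stk11. Every embryo carried Shh-Cre, a driver that recombines in cells of endodermal origin, among them lung epithelium. Control embryos had 1 floxed and 1 intact Stk11 allele (Stk11F/+), so that their epithelium could lose 1 copy, and Shh-Stk11 embryos had both alleles floxed (Stk11F/F). Mesenchyme, vessels and blood do not express the driver and were part of every library. The labels give the strain as C57BL/6 and the methods of the study describe mixed backgrounds.

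Epithelial cells separate an apical surface, which faces the lumen, from a basolateral surface, which contacts neighbours and matrix. The Par complex (PAR3, PAR6 and atypical protein kinase C) and the Crumbs complex (CRB3, PALS1 and PATJ) define the apical side, whereas the Scribble complex (SCRIB, LGL and DLG proteins) defines the basolateral side. The groups exclude each other, mainly because atypical protein kinase C phosphorylates LGL proteins and thereby removes them from the apical cortex. STK11 can polarize single intestinal epithelial cells in culture, which raises the question whether transcripts of these complexes differed when epithelial Stk11 was deleted.

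Values are FPKM, read numbers corrected for the length of the transcript and the depth of the library, so that levels can be compared between genes. Steps in the lowest values corresponded to 31.5 M to 38.8 M reads per library, and each polarity gene to between 850 and 15642 estimated reads. At these estimated read numbers the counting error would be at most 3.43% of a value. Stk11 itself was at 44.0 and 45.5 FPKM in Control lungs and at 29.5 and 26 FPKM in Shh-Stk11 1 and Shh-Stk11 2 (adjusted p in limma 0.0499, and 0.0232 to 0.26 over 14 alternatives, of which 2 kept the call). With each library left out in turn it was 0.113 to 0.183. Shh-Stk11 2 was the only library with Y-linked Ddx3y (23.5 FPKM) and with Xist near 0 (0.239 FPKM), and hence the only male. None of the 10 genes lies on a sex chromosome. The groups are whole organs, so fewer cells of a type and less RNA per cell cannot be told apart.

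None of the 10 polarity genes passed an adjusted p of 0.05 in limma, with which 2.27% of the 13770 tested genes were called (0.98% higher and 1.29% lower). At an unadjusted p under 0.05 there were 3 (Mpp5, Pard6b and Llgl2), 1 higher and 2 lower, against 15.2% of all tested genes (8.04% higher and 7.18% lower). Of the 10, 5 were higher and 5 were lower in Shh-Stk11 lungs, with a median log2 fold change of 0.0029 beside -0.05 over all tested genes. The differences ran from -0.46 for Pard6b to 0.60 for Mpp5. Their median size was 0.22 on the log2 scale, against 0.17 for all tested genes. In 7 of the 10 genes the values of the genotypes did not overlap, 4 higher and 3 lower, where 46.8% of all tested genes did not overlap (19.2% higher and 27.6% lower). With 2 libraries per genotype the smallest p of a two-sided exact permutation test is 0.333, so each p for a gene rests on the variance that limma shares across genes.

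**Figure D1:**
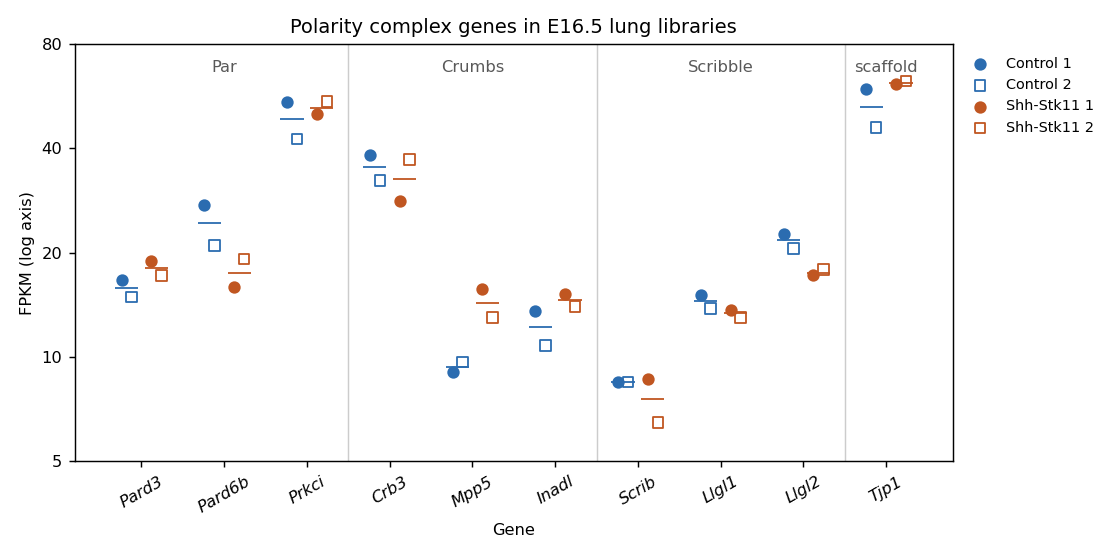
FPKM on a log axis for each polarity gene in each library (blue, Control; orange, Shh-Stk11; filled circles, replicate 1; open squares, replicate 2; lines, means of 2 libraries). Mpp5 lies higher in both Shh-Stk11 libraries, and Pard6b and Llgl2 lie lower, while Prkci, Crb3 and Scrib overlap between the genotypes.

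The levels spanned from 57.3 FPKM for Tjp1 to 8.02 FPKM for Scrib, as means over the 4 libraries. Tjp1 and Prkci (50.4 FPKM) were highest and overlapped each other. Crb3 followed at 34 FPKM and overlapped neither neighbour. Pard6b (20.9), Llgl2 (19.6), Pard3 (16.9), Llgl1 (13.9), Inadl (13.4) and Mpp5 (11.9 FPKM) formed a continuous range in which each gene overlapped the next. Scrib was below Mpp5 in every library. Over all tested genes the median level was 11.1 FPKM, and the polarity genes lay between the 40.6th and the 88.7th percentile. The transcripts of the apical kinase and of the junction scaffold were the most abundant, and those of the basolateral scaffold the least.

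Promoter sequences were available from RefSeq (GRCm38.p6) for 7 of the 10 genes, and not for Mpp5, Llgl2 and Scrib. The hexamer CACCTG, or CAGGTG on the other strand, is the E-box letter string that repressors of the epithelial state (SNAI and ZEB factors) are known to bind, and Crb3 is a known target of these factors. It was searched on both strands in the 250 bases before the start, and 17.2% of 32851 promoter windows of that length held it. Of the 7 genes, 3 held it before the first start given (Pard6b, Crb3 and Inadl), with log2 fold changes of -0.46, -0.12 and 0.27. Pard3 had none before its first start and 3 hexamers before a second start listed for the gene. The windows of Pard6b, the gene with the lowest fold change, and of Crb3 are shown, with the hexamers in capitals. Pard6b is at chr2:168080754-168081003, plus strand, with 2 hexamers that begin 141 and 86 bases before the start. Crb3 is at chr17:57061951-57062200, plus strand, with 3 hexamers that begin 118, 63 and 7 bases before the start.
Pard6b: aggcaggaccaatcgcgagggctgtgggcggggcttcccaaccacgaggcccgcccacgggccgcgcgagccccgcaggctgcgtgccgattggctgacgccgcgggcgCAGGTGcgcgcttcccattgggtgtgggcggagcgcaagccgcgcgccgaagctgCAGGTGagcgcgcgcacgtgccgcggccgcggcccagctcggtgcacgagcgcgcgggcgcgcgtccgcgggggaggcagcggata
Crb3: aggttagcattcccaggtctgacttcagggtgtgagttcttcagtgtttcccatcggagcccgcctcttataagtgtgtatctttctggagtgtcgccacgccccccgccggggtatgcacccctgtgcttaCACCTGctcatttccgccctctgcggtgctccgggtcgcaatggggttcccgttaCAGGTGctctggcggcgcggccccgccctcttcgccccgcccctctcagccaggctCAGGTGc
A window with 2 or more hexamers was found for 2.06% of all promoters, and 1 with 3 or more for 0.247%. These matches are letters only, and the libraries hold no measurement of binding.

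Among the Par complex genes, Pard6b had the lowest fold change of all 10 genes. PAR6 is the adaptor that couples the small GTPase CDC42 to atypical protein kinase C. Pard6b was at 27.5 and 21 FPKM in Control lungs and at 15.9 and 19.2 FPKM in Shh-Stk11 lungs. Both Shh-Stk11 values were below both Control values, although the Controls differed from each other by more than the nearest values of the genotypes did. The mean went from 24.3 ± 4.58 to 17.5 ± 2.32 FPKM (SD, n = 2), a log2 fold change of -0.46 (SE 0.174, 95% interval -0.88 to -0.04, adjusted p in limma 0.275). It was -0.27 without Control 1 and -0.65 without Control 2.

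Prkci encodes protein kinase C iota, the catalytic subunit of the complex. It was at 54.4 and 42.6 FPKM in Control lungs and at 50.1 and 54.6 FPKM in Shh-Stk11 lungs, and the genotypes overlapped. The log2 fold change was 0.12 (SE 0.155, 95% interval -0.25 to 0.49, adjusted p in limma 0.765), and it was 0.30 without Control 1 and -0.06 without Control 2.

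Pard3 encodes the scaffold that recruits PAR6 and the kinase to cell junctions. Its values were 16.7 and 14.9 FPKM in the Controls and 18.9 and 17.2 FPKM in Shh-Stk11 lungs. The genotypes were separated by a narrow margin, and the log2 fold change was 0.19 (SE 0.129, 95% interval -0.12 to 0.50, adjusted p in limma 0.541), or 0.11 without Control 2. Summed over its 3 genes, the complex reached 98.6 and 78.5 FPKM in the Controls and 84.8 and 91.0 FPKM in Shh-Stk11 lungs, so that both Shh-Stk11 sums lay between the Control sums.

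Among the Crumbs complex genes, Mpp5 had the highest fold change of all 10 genes. It encodes PALS1, the scaffold that ties CRB3 to PATJ and to the Par complex. Mpp5 was at 9.06 and 9.68 FPKM in Control lungs and at 15.7 and 13 FPKM in Shh-Stk11 lungs. The lower Shh-Stk11 value was well above the higher Control value. The mean went from 9.37 ± 0.441 to 14.3 ± 1.93 FPKM (SD, n = 2), or 1.52-fold, with a log2 fold change of 0.60 (SE 0.144, 95% interval 0.26 to 0.95). Its unadjusted p was 0.00484 and its adjusted p in limma 0.0997, which did not pass the threshold, and the adjusted p ranged from 0.089 to 0.443 over the 14 alternatives.

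Inadl, whose current symbol is Patj, encodes the multi-PDZ scaffold that binds PALS1 and tight junction proteins. It was at 13.6 and 10.8 FPKM in Control lungs and at 15.2 and 14.0 FPKM in Shh-Stk11 lungs. The genotypes did not overlap, but the gap between them was smaller than that between the Controls. The log2 fold change was 0.27 (SE 0.152, 95% interval -0.10 to 0.63, adjusted p in limma 0.478). Without Control 2 it was 0.10, without Control 1 it was 0.43, and it was 0.16 with the trend on length and GC content taken out.

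Crb3 encodes the short transmembrane protein that anchors the complex in the apical membrane. It was at 38.3 and 32.3 FPKM in Control lungs and at 28.2 and 37.1 FPKM in Shh-Stk11 lungs, with the lowest and the second highest value both in the mutants. The log2 fold change of -0.12 (SE 0.171, 95% interval -0.53 to 0.29, adjusted p in limma 0.791) turned to 0.10 after removal of the length and GC trend. It was 0.08 without Shh-Stk11 1 and 0.0023 without Control 1, so no direction can be given for Crb3. Of its exonic bases 0.895% lie opposite exons of Dennd1c.

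The Scribble complex genes were all lower on average, none past the threshold. Llgl2, the epithelial form of the LGL proteins, was at 22.7 and 20.6 FPKM in Control lungs and at 17.2 and 17.9 FPKM in Shh-Stk11 lungs. Replicates lay close together and the genotypes were clearly apart. The mean went from 21.7 ± 1.47 to 17.5 ± 0.511 FPKM (SD, n = 2), a log2 fold change of -0.30 (SE 0.122, 95% interval -0.59 to -0.0086, adjusted p in limma 0.311).

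Llgl1, the more widely expressed form, was at 15.1 and 13.8 FPKM in Control lungs and at 13.7 and 13 FPKM in Shh-Stk11 lungs. The highest mutant and the lowest Control value nearly coincided. The log2 fold change was -0.11 (SE 0.125, 95% interval -0.41 to 0.19, adjusted p in limma 0.718), with a range of -0.18 to -0.05 when either Control was left out. Its exons share 1.32% of their bases with Flii on the other strand, and how the authors' counting treated strand was not given in the sources used here.

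Scrib encodes the leucine-rich repeat and PDZ scaffold of the complex. It was at 8.49 and 8.48 FPKM in Control lungs and at 8.65 and 6.48 FPKM in Shh-Stk11 lungs. The difference came from Shh-Stk11 2 alone, since the log2 fold change of -0.18 (SE 0.17, 95% interval -0.59 to 0.23, adjusted p in limma 0.679) was 0.03 without that library and -0.38 without Shh-Stk11 1. The sum of the 3 genes was 46.3 and 42.9 FPKM in the Controls and 39.6 and 37.3 FPKM in Shh-Stk11 lungs.

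Tjp1 encodes ZO-1, which links the claudins and occludin of tight junctions to actin. It was at 59.3 and 46.0 FPKM in Control lungs and at 61.2 and 62.6 FPKM in Shh-Stk11 lungs. Control 1 was close to both mutant libraries and Control 2 was apart. The log2 fold change was 0.25 (SE 0.154, 95% interval -0.13 to 0.62, adjusted p in limma 0.515), 0.43 without Control 1 and 0.06 without Control 2.

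**Figure D2:**
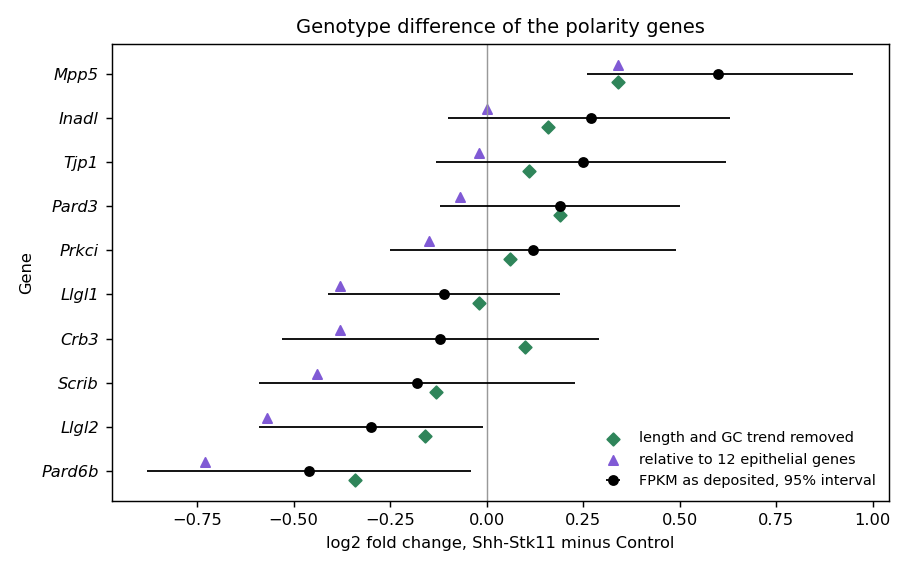
Log2 fold change of each polarity gene, Shh-Stk11 minus Control, from the deposited FPKM (black, with the 95% interval of limma), with the trend on length and GC content removed (green diamonds) and relative to the mean of 12 epithelial genes (purple triangles). Without further correction the intervals of Mpp5, Pard6b and Llgl2 leave out 0, and the 5 genes that were higher all move toward or below 0 relative to the epithelial genes.

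The Control replicates differed more than the genotypes for 5 of these genes (Prkci, Crb3, Inadl, Llgl1 and Tjp1). Control 2 was below Control 1 for 9 of the 10, by a median of 0.20 on the log2 scale (-0.20), whereas Control 2 was below Control 1 for 46.6% of all tested genes. The exception was Mpp5, at 0.09. The drop was deepest for Pard6b (-0.39), Tjp1 (-0.37), Prkci (-0.35) and Inadl (-0.32). Between the Shh-Stk11 replicates, 5 of the 10 genes were lower in Shh-Stk11 2, from -0.41 for Scrib to 0.39 for Crb3. Without Control 1 the median over the 10 genes was 0.14, and without Control 2 it was -0.12. The genes closest to the mean profile of the 10 over the 4 libraries were Tmem63b, Dcaf10, Atp13a2, Mtmr4 and Cant1, at distances of 0.0217 to 0.0253 on the log2 scale. Their log2 fold changes were at most 0.04, which follows from the choice, since they were picked for closeness to that profile.

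GC content separated the genes that were higher from those that were lower, but did not order them within either group. The genes that were higher had transcripts of at most 52.8% GC, and those that were lower had at least 53.8% GC. Mpp5 had the lowest GC content (39.5%), and Scrib (61.2%) and Llgl2 (60.5%) had the highest. Across the 10 genes Pearson's r between log2 fold change and GC content was -0.80 and Spearman's rho was -0.77, as a description over genes that share the same 4 libraries. For transcript length the values were 0.50 (Pearson, log length) and 0.71 (Spearman).

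All tested genes followed GC content as well. Their median log2 fold change went from 0.20 in the group of lowest GC content, which held Mpp5, to -0.16 in the group of highest, which held Scrib, Llgl1 and Llgl2. With the trend of each library on length and GC content removed, the range of the 10 genes narrowed from 1.06 to 0.69, between -0.34 and 0.34. Mpp5 was then at 0.34 (adjusted p in limma 0.282), Pard6b at -0.34 (0.437) and Llgl2 at -0.16 (0.583). The direction was kept by 9 of the 10 genes, all but Crb3.

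**Figure D3:**
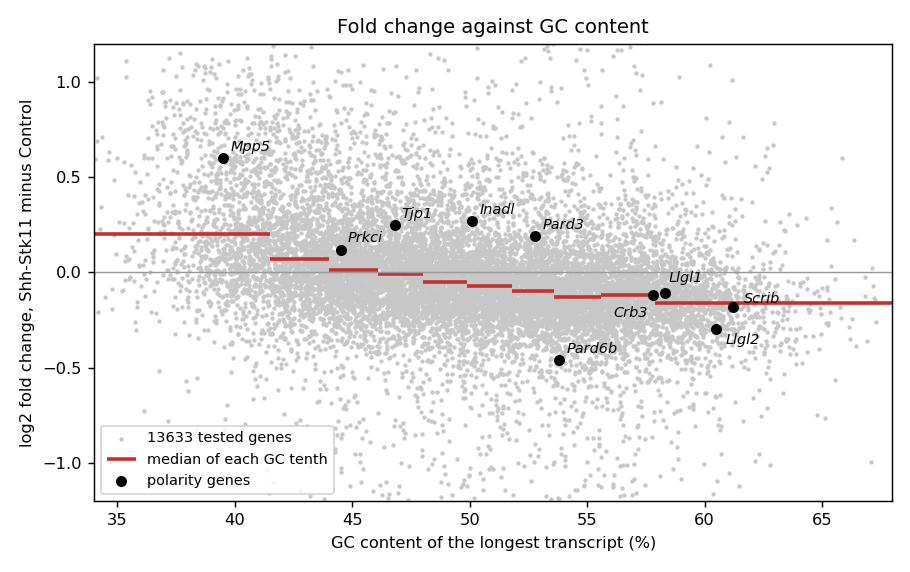
Log2 fold change, Shh-Stk11 minus Control, against GC content of the longest transcript for 13633 tested genes (grey, of which 416 lie beyond the axes), with the medians of 10 equal groups by GC content (red) and the 10 polarity genes (black). Mpp5 at 39.5% GC and the 3 Scribble complex genes at 58.3% to 61.2% GC lie on the side of 0 that the medians of their groups take, whereas Tjp1, Inadl and Pard3 were higher in groups whose medians were below 0.

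Marker transcripts of several cell types also differed in level between the genotypes, most of them short of the threshold. All 12 epithelial marker genes, which include Epcam, Cdh1 and Nkx2-1, were higher in Shh-Stk11 lungs, with a median log2 fold change of 0.21, 3 of them at an unadjusted p under 0.05 and 0 past the threshold. Their summed level was 1140 and 1190 FPKM in the Controls and 1250 and 1440 FPKM in Shh-Stk11 lungs. All 10 endothelial genes were lower (median -0.35, summed level 702 to 812 FPKM in the Controls and 561 to 602 FPKM in Shh-Stk11 lungs), as were 11 of 12 mesenchymal genes (median -0.15, 2440 to 2560 and 2040 to 2230 FPKM). Among 9 tested red blood cell genes 9 were lower (median -0.52, 5720 to 5920 and 3820 to 4200 FPKM), with the embryonic globin Hba-x past the threshold, though not without Control 1 (0.144) or Control 2 (0.146). The 9 immune genes went both ways (6 higher and 3 lower, median 0.09), and their sums overlapped (381 to 417 and 266 to 504 FPKM). No marker in these lists was at 0 in every library. Their part in the polarity results was not tested.

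Relative to the mean of the 12 epithelial genes, a choice made after the values were seen, every log2 fold change shifted by -0.27. On that scale 8 of the 10 polarity genes were lower, with a median of -0.26 beside -0.31 for all tested genes. Pard6b was at -0.73 (adjusted p in limma 0.0572), Llgl2 at -0.57 (0.0573), Scrib at -0.44 (0.151), and Crb3 and Llgl1 at -0.38 (0.114 and 0.108). Mpp5 stayed higher, at 0.34 (0.183), and Inadl was at 0.00016. None of the 10 passed the threshold. The comparison holds only for transcripts made mainly by epithelium, and these libraries cannot show which cells made them.

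Of the multiciliated cell genes 6 were tested and 5 were lower past the threshold (Foxj1, Myb, Ccno, Tekt1 and Rsph1), each of them in 7 to 12 of 14 alternatives. When 1 library was left out, Rsph1 kept the call in each case, and the adjusted p of the other 4 in limma reached 0.0612 (Foxj1), 0.0762 (Tekt1), 0.167 (Myb) and 0.186 (Ccno) without Control 2. Their summed level was 77.6 and 86.2 FPKM in the Controls and 29.6 and 26 FPKM in Shh-Stk11 lungs, a median log2 fold change of -1.50. The polarity genes stayed within 0.60 of 0 in the same libraries.

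Several polarity proteins have paralogs, and the share of each was compared. Crb3 made up 98.8% to 99.1% of the summed FPKM of the 3 Crumbs genes. Crb2 was at 0.283 to 0.306 FPKM and Crb1 at 0.0267 to 0.0817 FPKM in every library, below the filter for testing. Prkci made up 85.1% to 89.3% of the atypical kinase transcripts and Pard3 80.2% to 82.8% of the PAR3 transcripts, with Prkcz and Pard3b as the remainder.

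The PAR6 and LGL families were more evenly shared. Pard6b took 63.2% and 53.9% of the PAR6 transcripts in the Controls and 51.5% and 55.2% in Shh-Stk11 lungs. Its paralog Pard6g was at 10.5 and 11 FPKM in the Controls and 10.6 and 10.7 FPKM in Shh-Stk11 lungs (-0.0085 on the log2 scale, 95% interval -0.30 to 0.28). Pard6a was at 5.52 and 6.99 FPKM in Control lungs and at 4.36 and 4.83 FPKM in Shh-Stk11 lungs, without overlap (log2 fold change -0.43, adjusted p in limma 0.299, and -0.26 without Control 2). Llgl2 took 60.0% and 59.9% of the LGL transcripts in the Controls and 55.6% and 58.0% in Shh-Stk11 lungs.

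**Figure D4:**
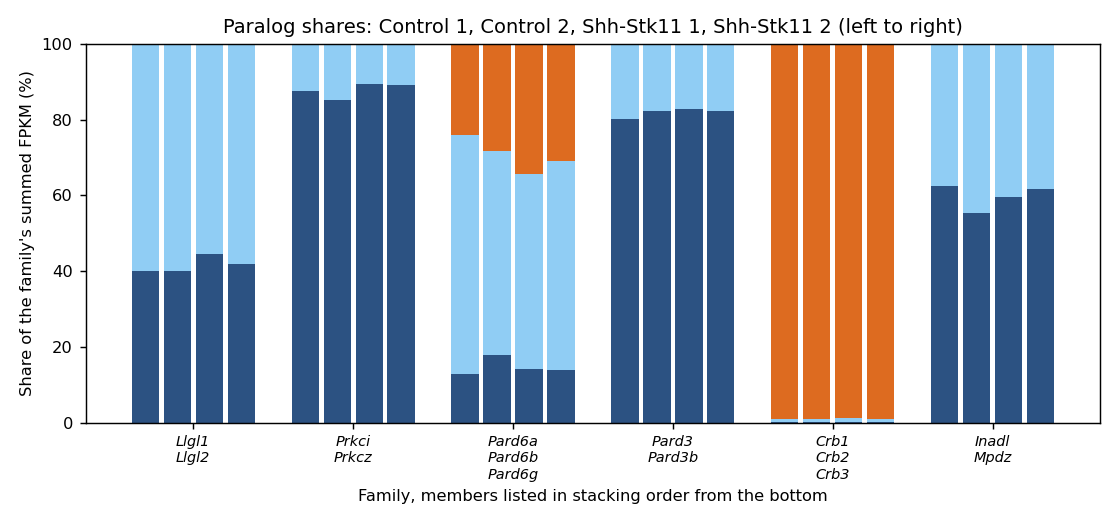
Share of each family's summed FPKM (%) held by each paralog, with 4 bars per family for Control 1, Control 2, Shh-Stk11 1 and Shh-Stk11 2, and colours in the order of the names from the bottom up. Crb3 holds nearly the whole Crumbs family, while Llgl1 and Llgl2 share their family, with Llgl2 at 55.6% to 60.0%.

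Ratios of paralogs were compared within each library. The log2 ratio of Llgl1 to Llgl2 was -0.58 in both Controls and -0.32 and -0.46 in Shh-Stk11 lungs, a difference of 0.19 without overlap (exact permutation p 0.333, two-sided, the smallest that 2 against 2 libraries allow). It was 0.13 with the trend on length and GC content taken out. The log2 ratio of Prkci to Prkcz was 2.81 and 2.5 in the Controls and 3.04 and 3.03 in Shh-Stk11 lungs (difference 0.38, exact permutation p 0.333), a difference of 0.24 with the trend on length and GC content taken out. For Pard3 to Pard3b the difference was 0.13 (exact permutation p 0.333), and 0.29 with that trend taken out. The ratios of Pard6b to its paralogs (-0.31, exact permutation p 0.667), of Crb3 to Crb1 and Crb2 (-0.02, exact permutation p 1.0) and of Inadl to Mpdz (0.10, exact permutation p 1.0) overlapped between the genotypes. In all 6 ratios the design could not reach 0.05.

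The partners of the complexes were then compared in 7 lists of other polarity and junction genes, 101 tested genes in all. Of these, 1 was higher and 0 were lower past the threshold in limma, or 0.99% against 2.27% of all tested genes. At an unadjusted p under 0.05 there were 13 higher and 7 lower genes, 19.8% against 15.2%. The median log2 fold change was 0.05, beside -0.05 over all tested genes.

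The gene past the threshold was Erbb2ip, whose current symbol is Erbin. It encodes a leucine-rich repeat and PDZ protein of the same family as SCRIB, which binds the receptor ERBB2 at the basolateral membrane. Erbb2ip was at 16 and 15.6 FPKM in Control lungs and at 33.4 and 28.0 FPKM in Shh-Stk11 lungs, far apart in comparison with the replicates. The mean went from 15.8 ± 0.284 to 30.7 ± 3.8 FPKM (SD, n = 2), with a log2 fold change of 0.95 (SE 0.134, adjusted p in limma 0.0255). Its transcript has 39.6% GC, like that of Mpp5. It was 0.65 on the log2 scale once the length and GC trend was taken out (adjusted p in limma 0.0604), and the call was kept in 6 of 14 alternatives, with an adjusted p of up to 0.254. It was lost without Control 1 (0.141), Control 2 (0.149) or Shh-Stk11 1 (0.105) and kept without Shh-Stk11 2 (0.0471).

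Within the Scribble list of 8 tested genes the median log2 fold change was 0.0057. Dlg1, which encodes the DLG protein of the complex, was at 28.9 and 28.8 FPKM in Control lungs and at 28.9 and 29.0 FPKM in Shh-Stk11 lungs. Arhgef7, an exchange factor that SCRIB binds, was the most highly expressed as a mean over the 4 libraries, with a log2 fold change of -0.09. In Shh-Stk11 1, Erbb2ip (33.4 FPKM) was above Arhgef7 (31.6 FPKM). Git1 had the lowest value in the fit of all libraries, at -0.20, though -0.05 without Shh-Stk11 2. Once length and GC content were accounted for, Git1 was at -0.06 and no longer the lowest, with Dlg1 at -0.14.

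The Par list of 10 tested genes had a median of -0.01. Cdc42, the GTPase that activates the complex, was the most highly expressed, at 366 and 370 FPKM in the Controls and 354 and 374 FPKM in Shh-Stk11 lungs. Its log2 fold change was -0.02. With all libraries the largest difference upward was 0.22 for Ect2, which was 0.07 without Control 1, and the largest downward -0.43 for Pard6a. In the Crumbs list of 8 tested genes the median was 0.14, and -0.0021 after removal of the length and GC trend. Lin7c, which encodes an adaptor bound to PALS1, was the most highly expressed, with a log2 fold change of 0.13. The range of that list was -0.03 for Amotl2 to 0.31 for Epb4.1l4a.

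Tight junction genes spanned the widest range of the 7 lists. Of 24 tested, 15 were higher and 9 were lower, with a median of 0.12. The genotypes did not overlap in 18 of the 24, where this held for 46.8% of all tested genes, and 8 higher and 2 lower genes had an unadjusted p under 0.05, beside 8.04% and 7.18% of all tested genes. Relative to the mean of the 12 epithelial markers, Cldn3 was higher at an unadjusted p under 0.05 in limma. On that scale F11r, Jam3, Cldn5, Cldn8, Cldn12 and Cldn15 were lower at the same level. Those markers, of which Cldn7 is also in this list, were higher in the same libraries (median 0.21), and their part in these values was not tested. The most highly expressed was Cldn18, a claudin of alveolar epithelium, at 352 and 276 FPKM in the Controls and 437 and 516 FPKM in Shh-Stk11 lungs (on the log2 scale 0.61, adjusted p in limma 0.184). Cldn6, a claudin of early epithelia, was at 28.1 and 46.6 FPKM in the Controls and 64.1 and 55.2 FPKM in Shh-Stk11 lungs, with the largest difference upward in the fit of all libraries (0.72, adjusted p in limma 0.218). Without Control 1 it was 0.35, below Magi3 (0.86) and Cldn18 (0.78). Cldn8 had the largest difference downward (-0.90, adjusted p in limma 0.246), from 0.902 and 1.16 to 0.602 and 0.419 FPKM. With a pseudocount of 1 it was -0.43, and the lowest value was that of Cldn5 (-0.64). The list mixes cell types, since Cldn5 is a claudin of endothelium.

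The adherens junction list of 15 tested genes had a median of 0.11. Ctnnb1, which encodes beta-catenin, was the most highly expressed, at 412 to 458 FPKM over the 4 libraries. Cdh1, which encodes E-cadherin, was at 130 and 105 FPKM in Control lungs and at 165 and 162 FPKM in Shh-Stk11 lungs (on the log2 scale 0.49, adjusted p in limma 0.184), and the endothelial Cdh5 was at the other end (-0.38, adjusted p in limma 0.331, and -0.21 without Control 1).

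In the list of apical domain and vesicle traffic genes, 22 were tested, with a median of -0.03. Anxa2 was the most highly expressed (log2 fold change -0.12). Sytl2, which encodes a tether of secretory vesicles, was at 2.97 and 1.93 FPKM in Control lungs and at 4.89 and 4.81 FPKM in Shh-Stk11 lungs (on the log2 scale 0.99, adjusted p in limma 0.0899). Podxl, which encodes an apical sialomucin also made by endothelium, had the lowest value in the fit of all libraries (-0.44, adjusted p in limma 0.234). Without Control 1 it was -0.28, above Prom1 of the same list, which was at -0.42 with all libraries and at -0.36 or lower in every alternative.

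Planar cell polarity, which orients cells within the sheet, was represented by 14 tested genes with a median of 0.05. Ptk7 was the most highly expressed (log2 fold change -0.05). Fzd3 was at 1.86 and 1.45 FPKM in Control lungs and at 3.39 and 2.52 FPKM in Shh-Stk11 lungs (on the log2 scale 0.80, adjusted p in limma 0.164), and its value was 0.28 once the length and GC trend was taken out. Dvl2 was at the other end (-0.37, adjusted p in limma 0.279).

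**Figure D5:**
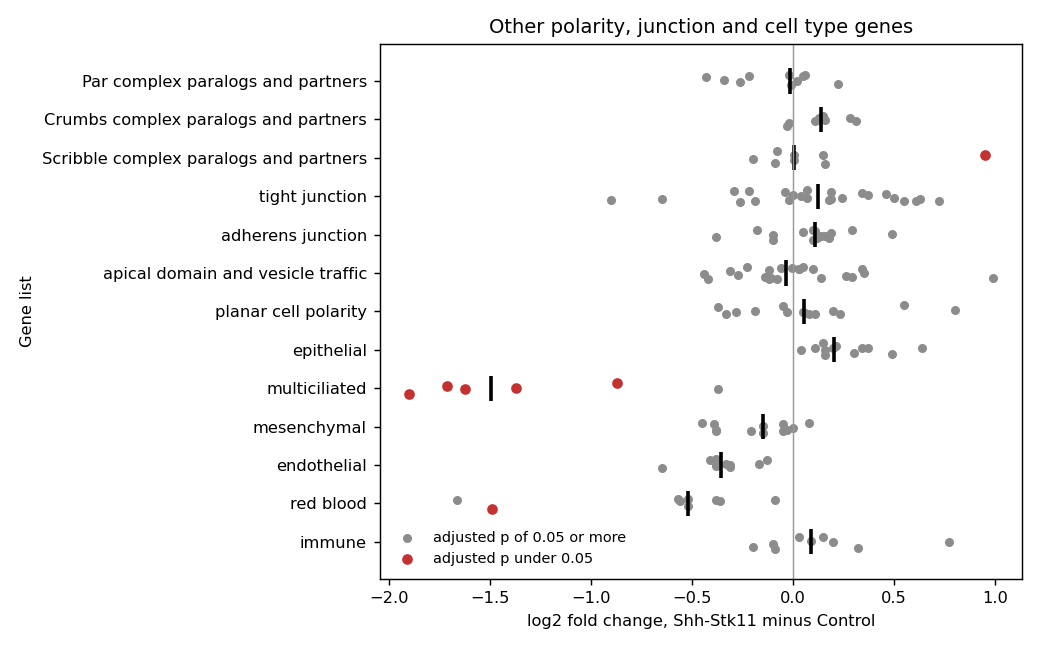
Log2 fold change, Shh-Stk11 minus Control, of each tested gene in 7 lists of polarity and junction genes and 6 lists of cell type markers (red, adjusted p under 0.05 in limma; black bars, list medians). Erbb2ip at 0.95 is the only red point among the polarity and junction lists, and the multiciliated genes stand apart with a median of -1.50.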

How the data were processed

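Total RNA of E16.5 lungs was sequenced single-end by the authors (HiSeq), who deposited FPKM values per gene and library. Per the labels, TopHat2 2.0.13 and Cufflinks 2.2.1 were among the tools and GRCm38 and mm9 among the builds, without roles. Any scaling between libraries was not given in the sources used here. The methods of the study call the replicates independent biological ones. The litters of the sequenced lungs were not given in the sources used here.

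Symbols were matched to GENCODE M21 (20242 directly, 1917 by RefSeq synonym, 397 unmatched) for the length and GC content of the longest transcript. Depth was estimated from the steps of low values in genes with a single transcript, after taking 250 bases off the length. Genes averaging 0.5 FPKM or more were tested on log2(FPKM + 0.1) with limma 3.58.1 (R 4.3.3), genotype as the only term, eBayes with a trend, two-sided, and Benjamini-Hochberg adjustment over all 13770 tested genes. This scale understates changes of low genes. The fit was checked on simulated data. Alternatives were pseudocounts of 1 and 0.01, a filter of 0.1 FPKM and none, quantile and median-ratio scaling, eBayes without the trend, replicate number as a block, a lowess trend on length and GC content removed, and leaving out each library. Epithelial genes as reference and a crossed block were added after seeing the data.

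The polarity genes and the lists were chosen with earlier results of these data known. The text names all 10 polarity genes, Stk11, paralogs of fixed pairs, and from each polarity or junction list the genes past the threshold, the most highly expressed and the largest changes. It also names the 5 genes nearest to the mean profile. Dlg1, F11r, Jam3, Magi3, Prom1, Cldn3, Cldn5, Cldn12, Cldn15 and the cell type markers named were chosen after their values were seen. A planned ratio, beside the 6 given, is not reported here.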

Additional observations from a re-analysis of the deposited data

How the results depend on the processing

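No polarity gene passed the threshold in any of the 14 alternatives, where the lowest adjusted p of any of them was 0.0572, or with the crossed block. The direction turned in 8 of 140 values. With epithelial genes as reference these were Pard3 (-0.07), Prkci (-0.15) and Tjp1 (-0.02). After removal of the length and GC trend it was Crb3 (0.10). When each library was left out in turn, Prkci ranged from -0.06 to 0.30, Crb3 from -0.32 to 0.08 and Scrib from -0.38 to 0.03, and the median of the 10 genes from -0.12 to 0.14. That median was -0.26 with epithelial genes as reference. Of the 101 genes of the partner lists, 40 turned with epithelial genes as reference, 21 after removal of the length and GC trend, 8 with quantile normalization and 8 with median ratio scaling. Among those named in the text, the first setting turned Dlg1 (-0.26), Lin7c (-0.13), Ect2 (-0.04), Ctnnb1 (-0.17), Pard3b (-0.21) and Mpdz (-0.10). The second turned Dlg1 (-0.14), Pard3b (-0.10), Lin7c (-0.14), Pard6g (0.07), Amotl2 (0.04), Anxa2 (0.01) and Ptk7 (0.05). Quantile normalization gave Cdc42 (0.05), Amotl2 (0.02), Anxa2 (0.11) and Ptk7 (0.01), and median ratio scaling Cdc42 (0.03), Pard6g (0.03) and Amotl2 (0.0098). Leaving out a library gave -0.23 to 0.05 for Arhgef7, -0.05 to 0.02 for Cdc42, -0.04 to 0.02 for Pard6g, -0.11 to 0.23 for Pard3b, -0.29 to 0.23 for Amotl2, -0.29 to 0.05 for Anxa2 and -0.18 to 0.08 for Ptk7.

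Over all genes the calls (135 higher, 178 lower) depended more on the setting. There were 0 higher and 1 lower with no filter, 84 and 99 after removal of the length and GC trend, and 56 and 481 with epithelial genes as reference. Leaving out a library gave 15 to 64 higher and 23 to 127 lower, which leaves that genotype with 1 sample assumed to vary like the rest. With the replicate block there were 6 and 7 calls. The labels link same-numbered libraries by a number only, and their deviations from the group means had a correlation of -0.114. With 2 libraries per genotype the crossed pairs have the opposite sign by construction, so this value cannot show how the lungs were paired. With the crossed pairing as a block there were 360 and 315 calls. The cause of these changes was not tested. At the estimated read numbers the counting error would be at most 3.43% for a polarity gene.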
